A study of Mus musculus with 2 samples.

Results

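The genes described here are 9 transcriptional regulators that shape the myeloid lineage: Spi1, Cebpb, Irf8, Irf4, Maf, Zeb2, Id3, Spic and Id2. They were taken by symbol from the 27998 genes counted, and all 9 were found in both libraries. The libraries hold RNA of single cells from the nonparenchymal fraction of the liver, which is what remains once most hepatocytes have been spun out. Both came from C57BL/6 mice given carbon tetrachloride (CCl4) 4 times, a hepatocyte toxin used to model liver fibrosis. One library is from wild-type mice and the other, called yap1 below, from mice with floxed Yap1 alleles and a Cre recombinase driven from the Lyz2 locus. That locus is active in monocytes, macrophages and neutrophils, and the YAP1 protein is the coactivator that Hippo signalling keeps out of the nucleus. Each library is described as a sample from 3 mice, and mice cannot be told apart within it. Whether the wild-type mice carried Cre or floxed alleles, and the age of the mice, are not given in the sources used here. With 1 library per genotype there is no replicate spread, so no test was made. All intervals cover the counting error of unique molecular identifiers (UMIs, one per RNA molecule captured) and nothing else, and a difference between the libraries cannot be told apart from a difference between samples.

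Myeloid cell types are set up by a small number of transcription factors that act in combination. PU.1 and C/EBP proteins open the regulatory regions shared by myeloid cells, interferon regulatory factors and MAF family members direct dendritic cell and macrophage fates, and ID proteins hold back helix-loop-helix factors that would favour other fates. In the liver, resident macrophages called Kupffer cells line the sinusoids, and monocytes from the blood enter after injury and become macrophages in place.

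Coordinates below are from the GENCODE M21 annotation of GRCm38 (mm10), and each member is a protein-coding gene. Spi1 (ENSMUSG00000002111, chr2:91082390-91115756, plus strand) encodes PU.1, the ETS factor on which most myeloid genes depend. Cebpb (ENSMUSG00000056501, chr2:167688915-167690418, plus strand) encodes C/EBP beta, a leucine zipper factor of monocytes and granulocytes that rises in inflammation. Irf8 (ENSMUSG00000041515, chr8:120736358-120756694, plus strand) is needed for plasmacytoid and cross-presenting dendritic cells and for monocyte development. Irf4 (ENSMUSG00000021356, chr13:30749226-30766976, plus strand), its close relative, acts in B cells, plasma cells and the other conventional dendritic cells. Maf (ENSMUSG00000055435, chr8:115682942-115707794, minus strand) encodes c-MAF, a macrophage and T helper cell factor that can switch on Il10. Zeb2 (ENSMUSG00000026872, chr2:44983632-45117395, minus strand) is a zinc finger repressor that helps tissue macrophages keep their identity. Spic (ENSMUSG00000004359, chr10:88674772-88685015, minus strand), a relative of PU.1, is induced by heme and marks macrophages that recycle iron. Id3 (ENSMUSG00000007872, chr4:136143497-136145755, plus strand) and Id2 (ENSMUSG00000020644, chr12:25093799-25097140, minus strand) encode ID proteins, of which the first is known from Kupffer cell development and the second from dendritic and innate lymphoid cells. Cebpb, Maf and Zeb2 overlap a counted gene on the other strand (Tmem189, Gm15655 and Zeb2os), and Irf8 overlaps Gm20388 on its own strand. The sources used here do not say whether strand was used in counting, and reads of these overlapping parts cannot be told apart.

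Sequence upstream of the start site was available from RefSeq (GRCm38.p6) for 7 of the 9 members, in 11 windows of 300 bases. Irf4 and Spic are shown because each was low in many of the classes described below, Irf4 in the 6 myeloid ones and Spic in classical monocyte-like, neutrophil-like and T cell-like barcodes. For Irf4 the stretch is chr13:30748983-30749225 on the plus strand, ending at the base before the annotated gene. Capitals mark its one match to the PU box letters, TTCCTC as read here, which is GAGGAA on the minus strand. For Spic it is chr10:88683024-88683273 on the minus strand, which lies inside the GENCODE gene but overlaps none of its exons, and it holds no match to that motif.

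Irf4: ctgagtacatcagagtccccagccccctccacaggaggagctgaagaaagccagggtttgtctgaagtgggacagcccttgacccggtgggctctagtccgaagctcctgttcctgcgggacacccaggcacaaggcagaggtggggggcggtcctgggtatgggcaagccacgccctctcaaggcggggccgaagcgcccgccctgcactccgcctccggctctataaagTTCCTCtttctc

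Spic: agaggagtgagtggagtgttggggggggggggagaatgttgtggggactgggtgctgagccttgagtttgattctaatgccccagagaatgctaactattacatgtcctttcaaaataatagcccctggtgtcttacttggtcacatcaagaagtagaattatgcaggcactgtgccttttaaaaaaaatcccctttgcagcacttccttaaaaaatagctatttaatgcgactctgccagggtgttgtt

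GAGGAA, searched on both strands, is found in 28.3% of the 32851 RefSeq windows of the same length, and in the first window of 3 of the 7 members (Irf4, Zeb2 and Id3). The other counts of members are also over first windows. The TEAD motif CATTCC, the letters read by the DNA-binding partners of YAP1, was in 1 of the 7 (Id3) and in 14.7% of all windows, and a later window of Zeb2 held it as well. The C/EBP motif TTGCNNAA was in 1 of 7 (Zeb2) and 10.8% of all windows. The composite IRF-ETS motif, an ETS core followed by an IRF core that can overlap a PU box, was in 0 of 7 and 2.72%, GGCGCC (BMP-SMAD) in 2 of 7 (Cebpb and Id2) and 11.9%, and the E box CANNTG in 3 of 7 (Irf4, Spic and Id2) and 72.3%. These are matches of letters in windows near the start and carry no measurement of binding.

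Depth was 30386545 UMIs over 5269 barcodes for wild type, with a median of 3860 each, and 34234353 UMIs over 4731 barcodes for yap1, with a median of 4707. The libraries shared 5 barcode sequences. After filtering, 4847 and 4149 barcodes were kept, and 4209 (86.8%) and 3591 (86.6%) of them could be assigned to a cell type from fixed marker genes, none of which is a member. Classes are named for the cell type whose markers they carry and are only like it, and barcodes between the classical monocyte and monocyte-derived macrophage panels are called intermediate. In all, 12 classes had at least 50 barcodes in both libraries. Among them, in the order wild type and yap1 that is used for all pairs of values below, were 386 and 198 Kupffer cell-like, 199 and 293 monocyte-derived macrophage-like, 98 and 178 intermediate, 259 and 289 classical monocyte-like, 201 and 148 nonclassical monocyte-like and 396 and 442 neutrophil-like barcodes. Kupffer markers summed to 22959.5 UMIs per 1000000 (CPM) in the wild-type Kupffer cell-like class, against 575 and 338 in the monocyte-derived one. Median depths were 2138 and 2882 UMIs in the Kupffer cell-like class and 14136 and 16040 in the monocyte-derived class. Yap1 itself had 147 and 106 UMIs in all, of which 0 to 2 fell in any myeloid class per library, so the recombination cannot be checked there. A 3′ tag that lies outside the deleted exons would in any case check nothing.

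Levels are given as UMIs of the gene per 1000000 UMIs of the class (CPM), and levels of different genes are not compared. Spi1 was highest in neutrophil-like (885 and 861 CPM) and nonclassical monocyte-like barcodes (799 and 863), whose intervals overlapped in both libraries. The 4 other myeloid classes and the type 2 conventional dendritic cell (cDC2)-like class lay between 409.5 and 558 CPM. The level dropped to 120.5 and 104 CPM in B cell-like barcodes, which use PU.1 at low dose, and to 8.55 and 17.1 in T cell-like ones, which shut the gene off. Cebpb ran in a steeper order, from 6821 and 8202 CPM in neutrophil-like barcodes through 3820.3 and 4364 in nonclassical and 3656 and 3599 in classical monocyte-like ones to 2828 and 2529 in the intermediate class. It stood at 2079 and 1817 CPM in monocyte-derived macrophage-like and 867 and 892 CPM in Kupffer cell-like barcodes. Neighbours in this order had separate intervals in both libraries, so the level was graded from monocyte-like to macrophage-like classes.

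Both interferon regulatory factors peaked outside the macrophages. Irf8 reached 3713 and 3682 CPM in plasmacytoid dendritic cell-like barcodes and 397 and 433 in B cell-like ones, the next class. The monocyte and macrophage classes held between 119 and 277 CPM, the cDC2-like class 69.9 and 61.7 and the neutrophil-like class 10.1 and 9.22. Irf4 had its highest level in B cell-like barcodes (95.4 and 174 CPM), then in the plasmacytoid (25.1 and 70.3) and cDC2-like classes (34.0 and 65.6), which overlapped. In the 6 myeloid classes it gave 2 to 19 UMIs per library, at most 5.78 CPM, so that no ratio between libraries could be formed there.

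Of the factors tied to macrophage identity, Spic was the most restricted. It stood at 172 CPM (151 to 195) in the wild-type and 110.0 CPM (89.6 to 134) in the yap1 library for the Kupffer cell-like class, and at 43.2 and 25.7 CPM in the next, monocyte-derived macrophage-like class. Classical monocyte-like barcodes had 6 and 19 Spic UMIs and neutrophil-like ones 0 and 1, where 0 allows up to 2.01 CPM. Maf was highest in sinusoidal endothelial-like barcodes (2251 and 2038 CPM). Kupffer cell-like ones (643 and 475) came next, then the intermediate (456 and 446) and monocyte-derived classes (456 and 436). In yap1 the Kupffer cell-like interval (431 to 522) overlapped those of the intermediate (422 to 471) and monocyte-derived classes (418 to 455). In both kinds of monocyte-like barcodes Maf stood between 74.5 and 189 CPM, and in neutrophil-like ones at 6.71 and 19.7. Zeb2 had its highest levels in the intermediate class (801 and 742 CPM) and was also high in monocyte-derived macrophage-like barcodes (769 and 654). Nonclassical (743 and 598) and classical monocyte-like barcodes (652 and 605) stood little lower. In wild type, neighbours among the intermediate, monocyte-derived and nonclassical classes had overlapping Zeb2 intervals. Its top class became the nonclassical one in wild type under a stricter gate, and the classical one in yap1 after thinning. Kupffer cell-like barcodes had about the Zeb2 level of plasmacytoid dendritic cell-like ones (377 and 336 against 345 and 343 CPM, with overlapping intervals in both libraries).

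The ID genes were spread over lineages. Id3 was highest in the intermediate class (2258 and 1563 CPM), and was high in monocyte-derived macrophage-like (1815 and 1051), cDC2-like (1413 and 1245) and sinusoidal endothelial-like barcodes (1204 and 1016). Kupffer cell-like barcodes stood lower, at 787 and 512 CPM, with intervals apart from those of the 5 classes above them. Id2 was highest in nonclassical monocyte-like barcodes (859 and 880.0 CPM), followed by monocyte-derived macrophage-like ones (789.9 and 803), and lowest in the plasmacytoid class (21.7 and 29.8). In wild type the Id2 intervals of the nonclassical (815 to 906) and monocyte-derived classes (758 to 823) overlapped. Among the 12 classes, the one with the highest level was the same in both libraries for 8 of the 9 members. The exception was Spi1, where the top 2 classes of the yap1 library differed by less than their counting error.

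**Figure D1:**
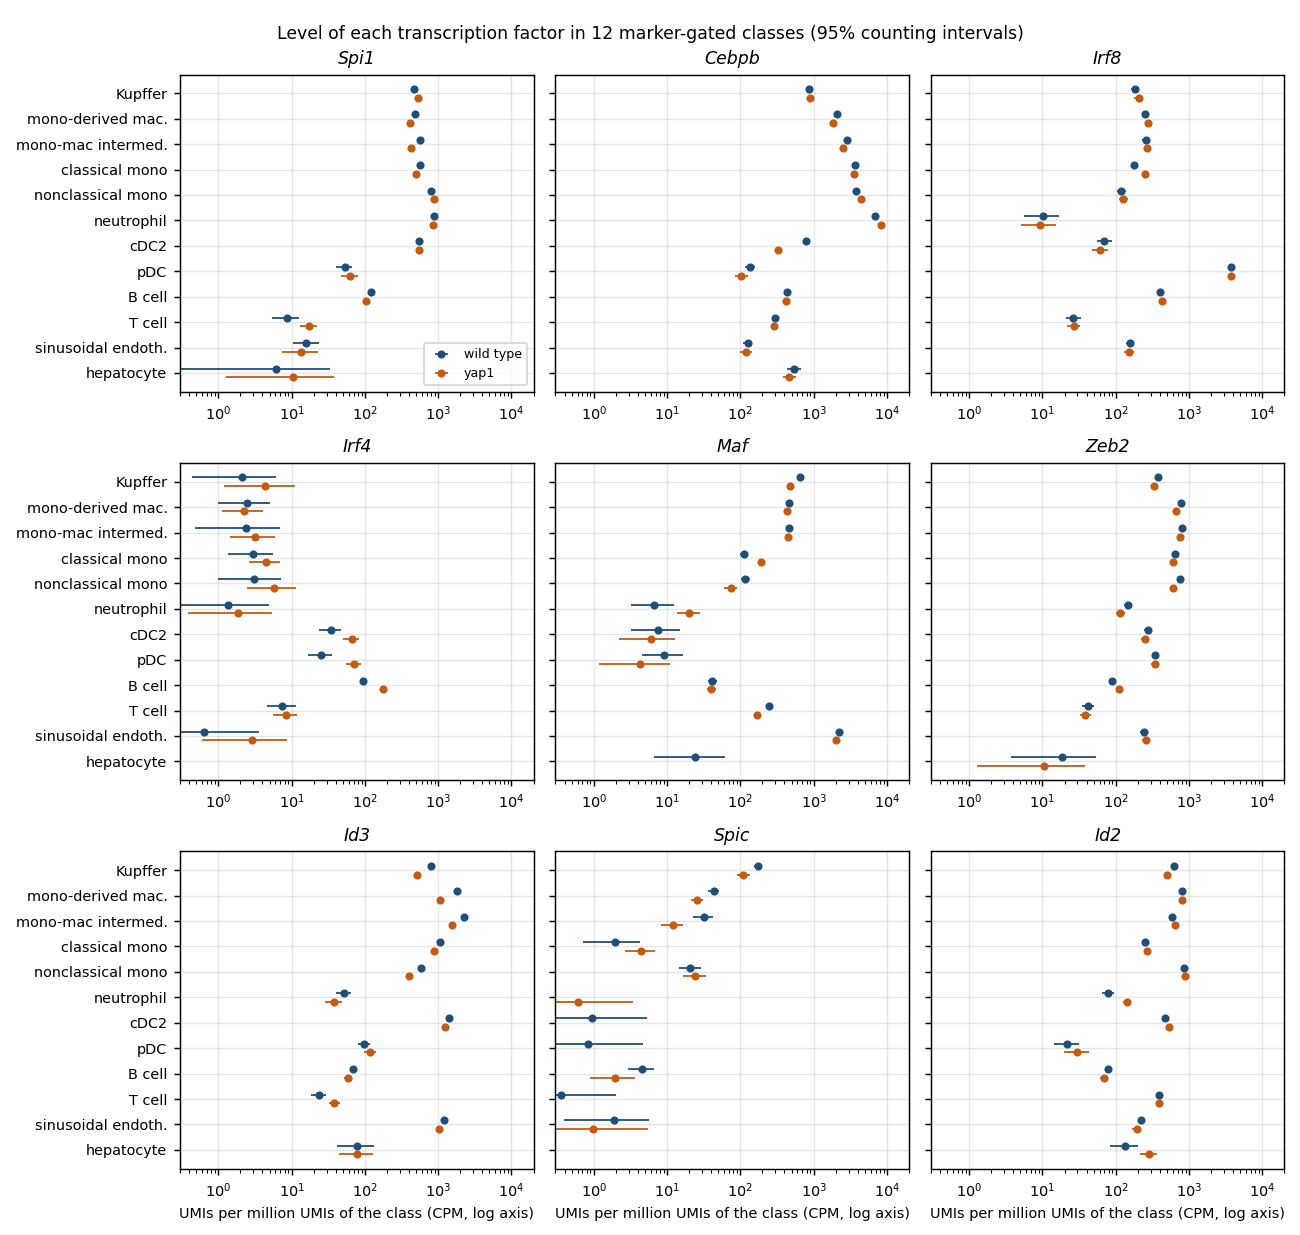
Level of each member in the 12 compared classes, as CPM on a log axis, with 1 point per library and bars for the 95% Poisson counting interval. Irf8 peaks in the plasmacytoid class (3713 and 3682 CPM), Spic in the Kupffer cell-like class (172 and 110.0 CPM) and Maf in the sinusoidal endothelial-like class (2251 and 2038 CPM).

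The design's question is which of these levels differ when Yap1 is deleted in Lyz2-expressing cells. A ratio of yap1 over wild type was formed wherever a gene had at least 50 UMIs over both libraries, which gave 82 pairs of member and class. A pair was counted when it lay beyond 1.5-fold, and the same count over all genes with at least 50 UMIs in the class gives the background. Of the 82 pairs, 8 were higher in yap1 and 7 lower. Kupffer cell-like barcodes had 0 of 8 members higher (background 6.29%) and 2 of 8 lower, Id3 and Spic (background 6.49%). The monocyte-derived class had 0 of 8 higher (background 5.18%) and the same pair lower (background 3.9%). In the intermediate class 0 of 8 were higher (background 7.03%) and 1 lower, Spic (background 4.15%). Classical monocyte-like barcodes had 1 of 7 higher, Maf (background 5.3%), and 0 lower (background 4.3%). Nonclassical ones had 0 of 8 higher (background 3.46%) and 1 lower, again Maf (background 7.08%). In the neutrophil-like class 1 of 5 was higher, Id2, where 17.6% of all genes were, and 0 lower, where 3.99% were.

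Outside these classes the counts are in either direction. The cDC2-like class had 2 of 7 members beyond 1.5-fold, Irf4 higher and Cebpb lower (background 12.4%), and the plasmacytoid class 1 of 7, Irf4 higher (background 8.85%). B cell-like barcodes had 1 of 8, Irf4 higher (background 7.4%), and T cell-like ones 2 of 8, Spi1 and Id3 higher (background 7.94%). None of 6 measured members in the sinusoidal endothelial-like class was beyond the fold (background 8.96%), and 1 of 2 in the hepatocyte-like class was, Id2 higher (background 23.2%). With 2 to 8 members per class each share is coarse, and nothing is read from the counts alone. The median log2 ratio of the measured members was -0.25 in Kupffer cell-like barcodes (0.00 over all genes), -0.21 in the monocyte-derived class (0.03), -0.14 in the intermediate class (0.03), -0.02 in classical monocyte-like (-0.03), 0.07 in nonclassical monocyte-like (-0.04) and -0.04 in neutrophil-like barcodes (0.20). In the neutrophil-like class and in the hepatocyte-like class (0.13) all genes together were shifted by more than 0.1. Scaled by that median, the neutrophil-like ratios were 1.05 for Cebpb, 0.850 for Spi1, 0.687 for Zeb2, 0.634 for Id3 and 1.60 for Id2, and ratios below are unscaled unless said.

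**Figure D2:**
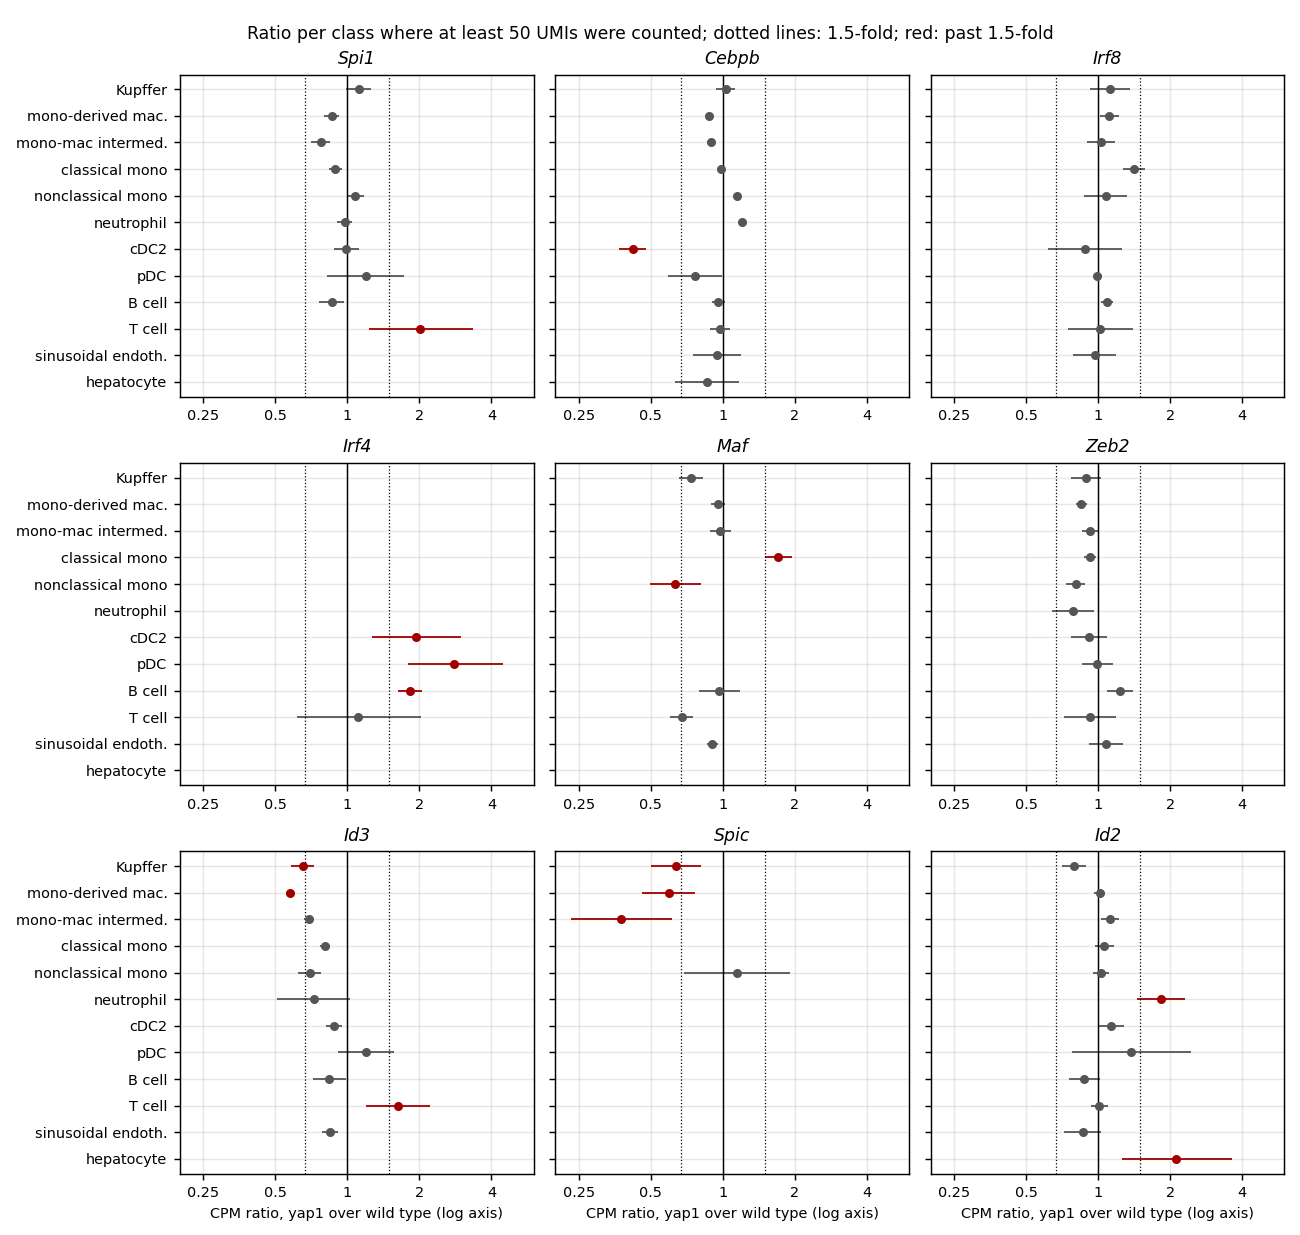
Ratio of yap1 over wild type for each member and class with at least 50 UMIs, on a log axis, with 95% counting intervals and dotted lines at 1.5-fold in either direction. Id3 lies below 1 in 9 of its 11 measured classes, the 6 myeloid ones among them, and reaches 0.579 in the monocyte-derived class. Irf4 lies above 1 in each of its 4 measured classes.

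Id3 was lower in yap1 in all 6 myeloid classes by this ratio, and its interval lay below 1 in 5 of them. In monocyte-derived macrophage-like barcodes it stood at 1815 CPM (1766 to 1865) in the wild-type and 1051 CPM (1022 to 1080.1) in the yap1 library. The ratio was 0.579 (0.557 to 0.602). The intervals of the levels are far apart, and the ratio kept between 0.556 and 0.608 under the 7 alternatives run. It was 0.692 (0.660 to 0.726) in the intermediate, 0.695 (0.625 to 0.773) in the nonclassical and 0.807 (0.770 to 0.846) in the classical monocyte-like class. The neutrophil-like class had only 77 and 61 Id3 UMIs and a ratio of 0.726 (0.510 to 1.03), which turned to 1.46 after thinning and to 1.23 without the barcodes of highest doublet score. In Kupffer cell-like barcodes the ratio was 0.650 (0.583 to 0.725), from 787 and 512 CPM. There it fell short of 1.5-fold when barcodes were weighted equally (0.802), when each was thinned to 1000 UMIs (0.848) and when the 5 barcodes with most Id3 UMIs were left out of each library (0.673). Sinusoidal endothelial-like barcodes, which are outside the Lyz2 lineage, had an Id3 ratio of 0.844 (0.782 to 0.911). It was also below 1 in cDC2-like (0.881, 0.817 to 0.950) and B cell-like barcodes (0.842, 0.718 to 0.986, but 1.05 without the highest doublet scores). Plasmacytoid (1.20, 0.916 to 1.57) and T cell-like barcodes (1.62, 1.20 to 2.21) lay above 1. Thus 9 of the 11 measured classes had an Id3 ratio below 1, and 8 had an interval below 1.

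The share of barcodes with at least 1 Id3 UMI is another view of the level. Thinned to 1000 UMIs each, 64.1% (56.9 to 70.8) and 44.6% (38.8 to 50.6) of monocyte-derived macrophage-like barcodes had one, with 4 and 4 shallower barcodes left out. Without thinning the shares were 87.9% and 89.4%, whose intervals overlap and which were read at unequal depths. For Kupffer cell-like barcodes the thinned shares were 32.9% (27.9 to 38.2) and 30.3% (23.7 to 37.7) (49 and 20 left out, 52.3% and 57.6% unthinned), whose intervals overlap. For sinusoidal endothelial-like barcodes they were 59.6% (54.3 to 64.7) and 45.0% (38.9 to 51.3) (87 and 61 left out, 75.4% and 66.3% unthinned), whose thinned intervals do not overlap. In a class that should lack it, an Id3 UMI was found in 8.59% and 6.79% of neutrophil-like barcodes, or 2.45% and 2.76% after thinning, at a median depth of 3008 and 3100.5 UMIs.

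Summed Kupffer markers were lower in yap1 in each compared class but the Kupffer cell-like one, also where Id3 was not lower. Some other panels were not lower. Classical monocyte markers stood at 1262 and 1399 CPM in the monocyte-derived class, and macrophage markers at 2661 and 3211 in the intermediate one. Summed Kupffer markers stood at 575 and 338 CPM in the monocyte-derived class, 103 and 65.3 in the intermediate, 303 and 67.2 in the nonclassical and 64.3 and 27.5 in the classical monocyte-like class, each lower in yap1. They were at 210 and 52.6 CPM in sinusoidal endothelial-like, 47.0 and 25.8 in neutrophil-like and 61.1 and 30.9 in plasmacytoid barcodes. The Id3 ratio of the plasmacytoid class was above 1. Kupffer cell-like barcodes, 386 and 198 in number, had 22959.5 and 23864.6 CPM. The part of these markers in the ratios was not tested. Of these 8 markers Timd4 was at 0 in the wild-type and C6 in the yap1 monocyte-derived class, and C6 was at 0 in both libraries of the classical monocyte-like class. Barcodes were therefore split by how many of the 8 Kupffer markers they carried, a split chosen after the values were seen. Those with 0 markers had median depths of 13218 and 14771 UMIs in the monocyte-derived class, against 18555.5 and 21215 with 2 or more. In the intermediate class these were 11583 and 15396 against 17476.5 and 17534, and in the nonclassical one 7046 and 7836.5 against 14668 and 8368. So this split is in part one by depth. The Id3 ratio in monocyte-derived macrophage-like barcodes was 0.550 (0.517 to 0.586) with 0 such markers, 0.708 (0.656 to 0.765) with 1 and 0.545 (0.510 to 0.583) with 2 or more. In the intermediate class the same ratios were 0.743 (0.694 to 0.796), 0.604 (0.558 to 0.654) and 0.768 (0.681 to 0.866). In nonclassical monocyte-like barcodes they were 0.801 (0.706 to 0.908), 0.671 (0.520 to 0.858) and 0.679 (0.384 to 1.13). With 0 Kupffer markers the ratio was nearer to 1 than in the whole class in the intermediate and nonclassical classes, and not in the monocyte-derived one. In classical monocyte-like barcodes Id3 itself was higher with more macrophage markers, from 667 and 353 CPM with 0 or 1 to 1470.4 and 1136 with 2 or more, and its ratio was 0.528 (0.475 to 0.587) in the former and 0.772 (0.731 to 0.815) in the latter. Of the class 46.3% and 65.1% carried 2 or more, and the ratio over the whole class was nearer to 1 than in either subset.

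In Kupffer cell-like barcodes the split was by Timd4, a marker of long-resident Kupffer cells, again chosen after the values were seen. Those with a Timd4 UMI had 841 and 515 CPM of Id3, and their ratio was 0.612 (0.543 to 0.688). Those without had 511 and 499 CPM, and an interval of the ratio that includes 1, at 0.976 (0.722 to 1.31). They were shallower, with median depths of 1581 and 1814 UMIs against 2552 and 3054 for those with a Timd4 UMI. The split is therefore in part one by depth, and a Timd4 UMI can be missed in a shallow barcode. The yap1 Kupffer cell-like class also held more classical monocyte markers (108 and 242 CPM), neutrophil markers (59.1 and 119.8) and cDC2 markers (34.4 and 97.0), of which Vcan and the neutrophil gene Stfa2l1 were at 0 in both libraries and Mgl2 in yap1. Their part in the ratio was not tested.

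**Figure D3:**
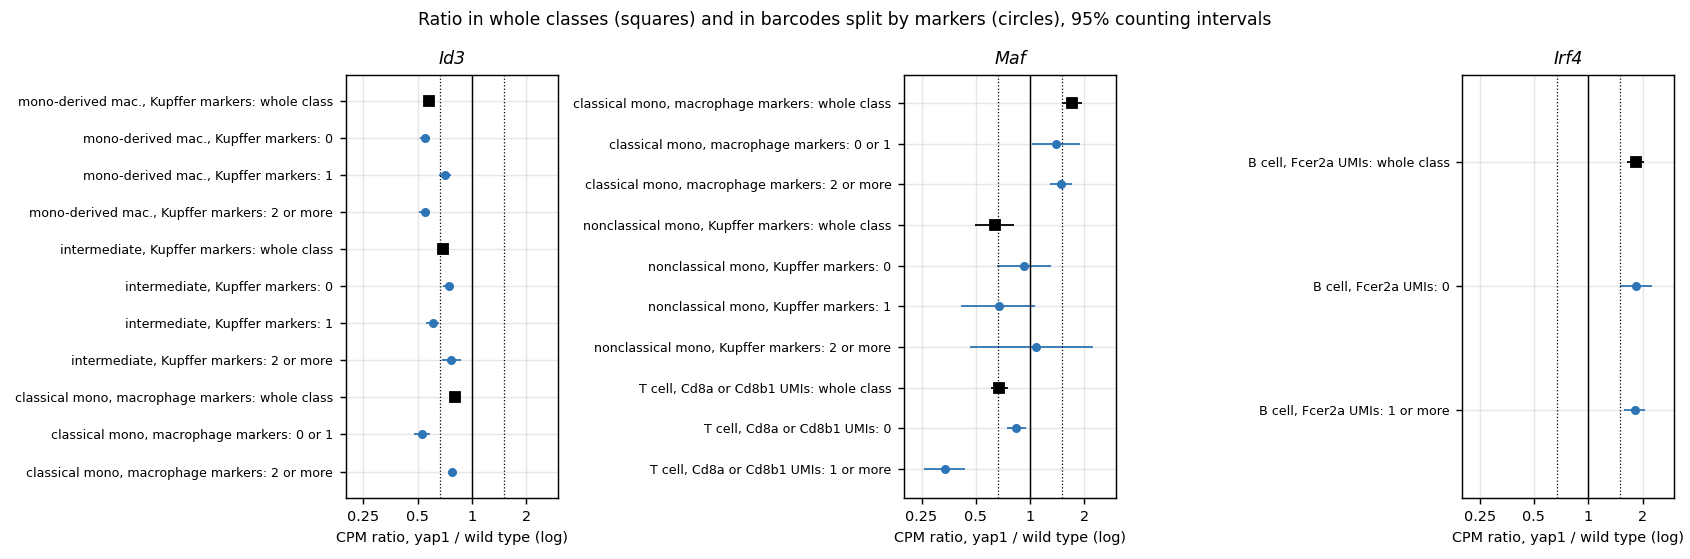
Ratios of Id3, Maf and Irf4 in whole classes (squares) and in barcodes split by markers (circles), on a log axis with 95% counting intervals. Id3 is below 1 in the subsets of the 3 myeloid classes drawn, Maf in nonclassical monocyte-like barcodes moves to 0.924 where no Kupffer marker was seen, and Irf4 is alike in B cell-like barcodes with and without Fcer2a.

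Spic was lower in yap1 where it was best measured. Kupffer cell-like barcodes had 245 and 101 UMIs and a ratio of 0.639 (0.502 to 0.809), which stayed beyond 1.5-fold in the 7 alternatives. After thinning, 16.0% (12.3 to 20.4) and 10.1% (6.10 to 15.5) of them had a Spic UMI (49 and 20 left out, 34.5% and 25.3% unthinned), and these thinned intervals overlap. In a class that should lack it, a Spic UMI was found in 0.213% and 0% (0 allows up to 0.640%) of T cell-like barcodes, or 0% (0 allows up to 0.642%) and 0% (0 allows up to 0.640%) after thinning, at a median depth of 5510.5 and 6754 UMIs. With a Timd4 UMI the ratio was 0.698 (0.540 to 0.897) and, in the shallower barcodes without one, 0.341 (0.145 to 0.714). In the monocyte-derived class Spic had 124 and 125 UMIs and a ratio of 0.595 (0.460 to 0.769). However, it was 0.812 with equal weights, 0.698 without the top 5 barcodes and, on the other side of 1 but from few UMIs, 1.35 after thinning. With 0, 1 and 2 or more Kupffer markers it was 0.409 (0.231 to 0.709), 0.654 (0.427 to 1.01) and 0.640 (0.419 to 0.977). In the intermediate class 40 and 34 UMIs gave 0.377 (0.232 to 0.611). There 5 barcodes held 82.5% of the wild-type UMIs, and without the top 5 of each library the ratio was 0.935, while the stricter gate gave 0.717. Nonclassical monocyte-like barcodes had 34 and 33 UMIs and a ratio of 1.14 (0.686 to 1.90). It was below 1 with equal weights (0.798), without the top 5 (0.778) and, from few UMIs, after thinning (0.169).

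Maf stood on opposite sides of 1 in the 2 monocyte-like classes. In classical monocyte-like barcodes it stood at 111 CPM (99.2 to 123) in the wild-type and 189 CPM (176 to 202) in the yap1 library. The ratio of 1.71 (1.5 to 1.94) stayed beyond 1.5-fold in the 7 alternatives. Thinned shares were 12.5% (8.67 to 17.1) and 15.6% (11.6 to 20.3) (2 and 1 left out, 43.6% and 63.7% unthinned), with overlapping intervals. In a class that should lack it, a Maf UMI was found in 2.02% and 4.07% of neutrophil-like barcodes, or 0.817% and 1.25% after thinning, at a median depth of 3008 and 3100.5 UMIs. The macrophage panel was also higher there, at 491 and 858 CPM, with all 8 of its markers detected in both libraries. Within barcodes carrying 0 or 1 macrophage marker the Maf ratio was 1.38 (1.02 to 1.88), and within those carrying 2 or more it was 1.48 (1.28 to 1.71). Both are below the ratio of the whole class and below 1.5-fold, and the yap1 class held more marker-rich barcodes.

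In nonclassical monocyte-like barcodes Maf stood at 117 and 74.5 CPM from 191 and 103 UMIs, and the ratio was 0.635 (0.495 to 0.811). It fell short of 1.5-fold in 4 of the 7 alternatives, at 0.669 without the highest doublet scores, 0.805 under a stricter gate, 0.778 with equal weights and 0.901 after thinning. Kupffer markers in this class were at 303 and 67.2 CPM, with Vsig4, Timd4 and C6 at 0 in yap1, and their part in the whole class was not tested. Barcodes with 0 Kupffer markers made up 76.6% and 87.8% of it and had a Maf ratio of 0.924 (0.654 to 1.30). It was 0.673 (0.413 to 1.07) with 1 such marker and 1.08 (0.464 to 2.23) with 2 or more, from few UMIs. Kupffer cell-like barcodes themselves had less Maf in yap1, 0.738 (0.657 to 0.828), while the monocyte-derived class was near 1, at 0.957 (0.893 to 1.03) and the intermediate one at 0.978 (0.885 to 1.08). In T cell-like barcodes Maf had 249 and 167 CPM and a ratio of 0.673 (0.603 to 0.752). Among those with a Cd8a or Cd8b1 UMI it was 119 and 40.2 CPM, 0.338 (0.259 to 0.438), and among the rest, which should hold the T helper cells, 427 and 358 CPM, 0.838 (0.740 to 0.949).

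Irf4 was higher in yap1 in B cell-like barcodes and in both dendritic cell-like classes. The B cell-like class stood at 95.4 CPM (87.4 to 104) in the wild-type and 174 CPM (163 to 187) in the yap1 library. From 524 and 817 UMIs the ratio was 1.83 (1.64 to 2.04). Among the other panels in this class, neutrophil markers were at 52.8 and 24.3 CPM, nonclassical monocyte markers at 47.7 and 20.9, sinusoidal endothelial markers at 36.8 and 15.8 and mesenchymal markers at 5.46 and 21.3, and plasma cell markers, which go with high Irf4, at 427 and 481. Their part was not tested. The range of the ratio over the 7 alternatives was 1.76 to 1.85. After thinning, 9.18% (7.67 to 10.9) and 15.6% (13.4 to 18.1) of B cell-like barcodes had an Irf4 UMI (8 and 5 left out, 28.2% and 46.7% unthinned), and the intervals do not overlap. In a class that should lack it, an Irf4 UMI was found in 0.223% and 0.929% of sinusoidal endothelial cell-like barcodes, or 0% (0 allows up to 0.831%) and 0% (0 allows up to 1.15%) after thinning, at a median depth of 2400 and 2205 UMIs. Split by Fcer2a, a marker of follicular B cells, the ratio was 1.83 (1.49 to 2.25) without and 1.81 (1.58 to 2.07) with a UMI, although the Fcer2a-bearing share itself was 64.3% and 73.6%. In cDC2-like barcodes 36 and 66 UMIs gave 1.93 (1.27 to 2.98), beyond 1.5-fold in the 7 alternatives. The lowest of these was 1.55, after thinning, from few UMIs. Of the 76 and 60 thinned barcodes without an Irf8 UMI, 5.26% (1.45 to 12.9) and 6.67% (1.85 to 16.2) had an Irf4 UMI. These intervals overlap, and the 2 and 3 thinned barcodes with an Irf8 UMI had none. In plasmacytoid dendritic cell-like barcodes 30 and 66 UMIs gave 2.80 (1.79 to 4.47), and 1.05 after thinning, where the shares were 4.69% (1.74 to 9.92) and 4.94% (1.36 to 12.2) (none left out, 18.0% and 42.0% unthinned). Migratory dendritic cell markers in the plasmacytoid class were at 18.4 and 59.6 CPM, and their part was not tested. Lyz2 is not a gene of the B cell lineage, and the B cell-like difference is given as a difference between these 2 libraries.

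**Figure D4:**
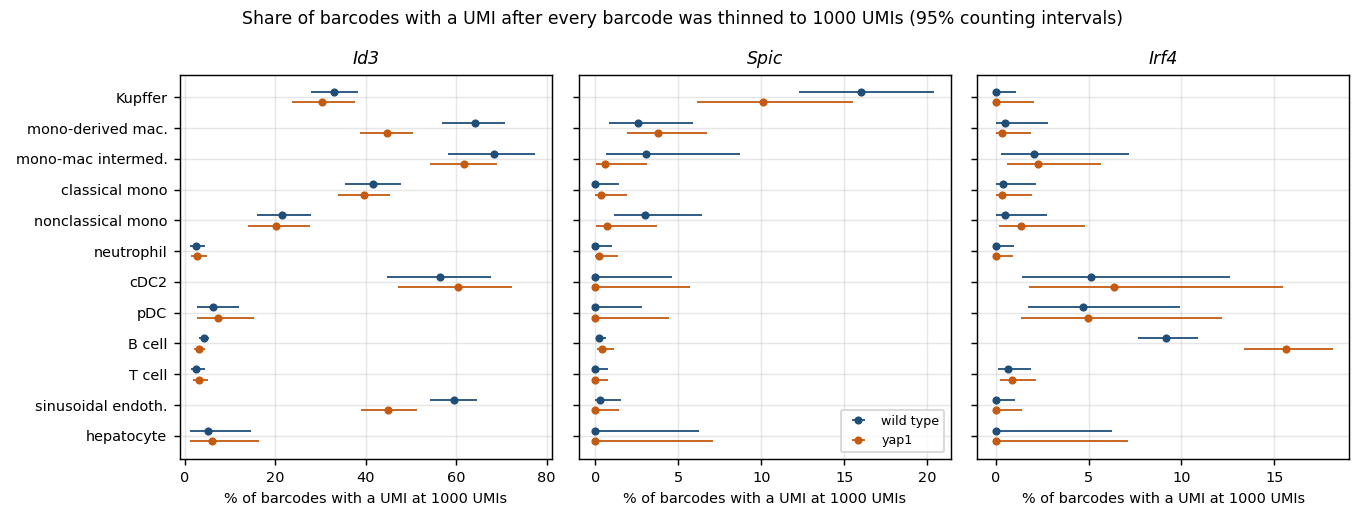
Share of barcodes with at least 1 UMI after each was thinned to 1000 UMIs, per class and library, with 95% Clopper-Pearson intervals. Id3 in the monocyte-derived class (64.1% and 44.6%) and in the sinusoidal endothelial-like class (59.6% and 45.0%), and Irf4 in the B cell-like class (9.18% and 15.6%) are apart beyond counting error.

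Cebpb differed in cDC2-like barcodes, at 780.4 CPM (728 to 835) in the wild-type and 328 CPM (294 to 366) in the yap1 library. The ratio of 0.421 (0.369 to 0.478) stayed beyond 1.5-fold in the 7 alternatives. Thinned shares were 47.4% (36.0 to 59.1) and 25.4% (15.3 to 37.9) (1 wild-type barcode left out, 86.1% and 79.4% unthinned), with intervals that overlap in part. In the class taken as lacking it, a Cebpb UMI was found in 65.6% and 64.2% of plasmacytoid dendritic cell-like barcodes, or 11.7% and 12.3% after thinning, at a median depth of 9521.5 and 11547 UMIs. The neutrophil panel in the cDC2-like class stood at 59.5 and 31.8 CPM, with 3 of its 8 markers at 0 in wild type and 1 in yap1, and the Kupffer panel at 28.3 and 5.97, with 5 of 8 at 0 in yap1. Their part was not tested. Restricted to barcodes with 2 or more classical monocyte markers, the ratio was 0.397 (0.348 to 0.452). In the myeloid classes the Cebpb ratio ran from 0.874 (0.846 to 0.903) in the monocyte-derived to 1.20 (1.17 to 1.23) in the neutrophil-like class. Neutrophil-like barcodes without a UMI of the granule genes Camp, Ltf or Ngp, which mark immature cells, had 9405 and 9772 CPM, and those with one 3286 and 3962. The ratios within these subsets were 1.04 (1.01 to 1.07) and 1.21 (1.13 to 1.29), and granule-bearing barcodes were 22.2% and 13.1% of the class.

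None of Irf8, Zeb2 and Spi1 was beyond 1.5-fold in a myeloid class by the ratio itself. Irf8 was above 1 in each of the 5 myeloid classes where it was measured, at 1.41 (1.27 to 1.57) in classical monocyte-like barcodes and at 1.03 (0.900 to 1.17) to 1.12 (0.922 to 1.35) in the others. In classical monocyte-like barcodes thinning took it past 1.5-fold, to 1.68. It was below 1 in Kupffer cell-like barcodes under the stricter gate (0.852), with equal weights (0.823), after thinning (0.864) and without the top 5 (0.874). The same held for the monocyte-derived class with equal weights (0.966) and after thinning (0.850), and for the intermediate class after thinning (0.625). In the plasmacytoid class, where Irf8 is highest, the ratio was 0.992 (0.948 to 1.04). Zeb2 was below 1 in all 6 myeloid classes, from 0.786 (0.644 to 0.960) in neutrophil-like to 0.928 (0.875 to 0.984) in classical monocyte-like barcodes, with the interval below 1 in 5. After thinning its ratio was 1.02 in classical monocyte-like and, beyond 1.5-fold, 0.621 in neutrophil-like barcodes. Neutrophil-like barcodes without granule genes had a Zeb2 ratio of 0.645 (0.522 to 0.798), and those with them 0.920 (0.479 to 1.72). Spi1 lay between 0.773 (0.705 to 0.849) in the intermediate and 1.12 (0.991 to 1.26) in the Kupffer cell-like class, where thinning gave 0.957, as it gave 0.857 in nonclassical monocyte-like barcodes. In T cell-like barcodes Spi1 had only 24 and 62 UMIs, of which 5 barcodes held 66.7% and 62.9%, and its ratio of 2.01 (1.23 to 3.36) was 1.49 after thinning and 3.82 without the highest doublet scores. Neutrophil markers in this class were at 18.2 and 34.3 CPM, and their part was not tested. Id3 in the same class had a ratio of 1.62 (1.20 to 2.21), but 58.0% of its yap1 UMIs were in 5 barcodes and the ratio without the top 5 was 0.835. It fell short of 1.5-fold in 5 of the 7 alternatives. With a Cd8a or Cd8b1 UMI it was 2.25 (1.53 to 3.38) and without one 0.817 (0.476 to 1.40).

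Id2 was higher in yap1 in neutrophil-like barcodes, at 77.9 and 143 CPM, and the ratio was 1.83 (1.46 to 2.31). Scaled by the median over all genes of that class it was 1.60, and after thinning 1.49. Classical monocyte markers in this class were at 2211 and 882 CPM, with Vcan at 0 in both libraries. T cell markers were at 5.37 and 24.0 CPM, with Cd5 at 0 in wild type, and natural killer or innate lymphoid markers at 1.34 and 5.53, with 6 of 7 at 0 in wild type and 3 in yap1. The part of these panels was not tested. Among barcodes without granule genes the ratio was 2.16 (1.65 to 2.87) and among those with them 0.636 (0.356 to 1.10), the latter from few UMIs. In hepatocyte-like barcodes 22 and 54 UMIs gave 2.11 (1.26 to 3.64), 1.93 scaled by the median, 1.39 after thinning and 3.97 without the top 5 barcodes. In the other myeloid classes Id2 lay between 0.795 (0.708 to 0.891) in Kupffer cell-like and 1.12 (1.03 to 1.22) in intermediate barcodes. Thinning put the monocyte-derived (0.807), intermediate (0.954) and nonclassical class (0.899) below 1.

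Related genes were read from 7 lists of 45 genes in all, of which 43 were found: other macrophage, dendritic cell and granulocyte transcription factors, helix-loop-helix partners of the ID proteins, other interferon regulatory factors, PU.1 relatives with heme-responsive repressors, and textbook targets of the members. Of the measured ones, 2 of 29 were higher and 6 lower beyond 1.5-fold in Kupffer cell-like barcodes (over all genes 6.29% and 6.49%). There were 1 and 5 of 38 in the monocyte-derived class (over all genes 5.18% and 3.9%) and 2 and 6 of 36 in the intermediate class (7.03% and 4.15%). The counts were 2 and 2 of 36 in classical (5.3% and 4.3%) and 1 and 1 of 34 in nonclassical monocyte-like barcodes (3.46% and 7.08%), and 4 and 1 of 21 in neutrophil-like ones (17.6% and 3.99%). The list of textbook targets, each a known target of one or another member, had 3 of 7 lower in the monocyte-derived class, where 3.9% of all genes were (median log2 ratio -0.54, against 0.03 over all genes) and 4 of 6 in the intermediate class, where 4.15% were (-0.92, against 0.03). In the monocyte-derived class these were Il10, Arg1 and Il1b, and in the intermediate class they included the iron exporter gene Slc40a1 (45.7 and 23.4 CPM, ratio 0.512, interval 0.355 to 0.741). Of the same list 1 of 5 was lower in Kupffer cell-like, 2 of 5 in classical monocyte-like and 0 of 3 in neutrophil-like barcodes. Nonclassical monocyte-like barcodes had 0 of 6 lower and 1 higher. The lists were chosen with earlier results of these data known, so nothing is read from these counts. Arg1, an arginine-consuming enzyme that C/EBP beta can induce, was lower in the monocyte-derived class (130.2 and 78.5 CPM, ratio 0.603, interval 0.521 to 0.697) and higher in nonclassical monocyte-like barcodes (10.4 and 41.9 CPM, ratio 4.02, interval 2.31 to 7.36).

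Among the other factors, Klf4, needed for monocyte differentiation, stood at 231 and 136 CPM, ratio 0.587, interval 0.527 to 0.655 in the monocyte-derived class. Nr1h3, which encodes LXR alpha and keeps up Kupffer cell identity, had 163 and 88.7 CPM, ratio 0.544, interval 0.451 to 0.657 in the intermediate and 214 and 143 CPM, ratio 0.670, interval 0.600 to 0.747 in the monocyte-derived class. Tfec was lower in Kupffer cell-like barcodes (59.8 and 29.4 CPM, ratio 0.492, interval 0.307 to 0.767), and Bhlhe40 (26.0 and 53.4 CPM, ratio 2.05, interval 1.31 to 3.23) and Batf3 (71.0 and 118 CPM, ratio 1.66, interval 1.25 to 2.20) were higher. Id1, the relative of Id2 and Id3, was higher in classical (56.5 and 95.6 CPM, ratio 1.69, interval 1.41 to 2.04) and lower in nonclassical monocyte-like barcodes (43.0 and 22.4 CPM, ratio 0.521, interval 0.330 to 0.806), the directions Maf had there. Fli1, an ETS factor like PU.1, was higher in classical monocyte-like barcodes (50.9 and 88.4 CPM, ratio 1.74, interval 1.44 to 2.11). Cebpe, a factor of granule formation, was lower in neutrophil-like barcodes (90.6 and 57.8 CPM, ratio 0.638, interval 0.485 to 0.836), the class whose granule-bearing share was smaller, and Irf5 was higher (20.8 and 41.8 CPM, ratio 2.01, interval 1.30 to 3.18). Bach2, a heme-responsive repressor, was higher in the intermediate class (5.51 and 18.9 CPM, ratio 3.42, interval 1.55 to 8.91) from few UMIs.

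Which genes ran most like each member was read from Pearson's r of log2(CPM + 10) over the 25 profiles of class and library with at least 50 barcodes, among 9422 genes. The profiles share libraries and cell types, so r is a description. Spi1 ran close to Csf2ra (0.96) and Pirb (0.96). Cebpb ran most like Clec4e (0.92), Tlr13 (0.92) and Cd300lb (0.92), and Zeb2 like the lysosomal genes Psap (0.94) and Ppt1 (0.92) with Entpd7 (0.93) between them. For Spic the nearest were Fabp7 (0.95), Folr2 (0.94), which is one of the Kupffer markers used to assign barcodes, and Epb41l1 (0.93). Irf4 had Siglecg (0.96), H2-DMb2 (0.94) and H2-Oa (0.93), the last 2 of which belong to antigen presentation by class II molecules. Irf8 had Arhgap17 (0.86), Snx5 (0.86) and Rftn1 (0.85), Maf Drap1 (0.92), Sgk1 (0.91) and Sept8 (0.90), Id3 Phf11d (0.94), Cttnbp2nl (0.93) and Tcp11l1 (0.93), and Id2 the loosest set, Arl4c (0.80), Ckb (0.77) and Itgav (0.77). Among the members themselves r was highest for Spi1 with Cebpb (0.77), Zeb2 with Id3 (0.76) and Spi1 with Zeb2 (0.69), and lowest for Irf4 with Id2 (-0.49).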

How the data were processed

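Each genotype, wild type and yap1, gave 1 droplet library of nonparenchymal liver cells, in which RNA was counted by cell barcode. The deposited matrices hold whole-number counts per gene and barcode, per the file headers, with Ensembl IDs and symbols, and behave as UMI counts that were not normalized. The submitters' processing notes list Seurat, mm10 and Bowtie 0.12.2 without saying what each did. The counting program, its annotation and its use of strand are not given in the sources used here.

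A barcode was kept if no more than 20% of its UMIs were mitochondrial and it had 500 UMIs and 200 genes or more. A barcode was assigned to the panel of which the largest share of markers was detected, with at least 3 markers and a lead of at least 0.15 over the next. Barcodes that met 2 panels were left out, except between classical monocytes and monocyte-derived macrophages, and no other doublet removal was made. The panels were listed first, but this scoring rule, the marker splits within classes and the choice of classes that should lack a gene were set after seeing the data. In the T cell panel 5 of 7 markers were found.

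UMIs were summed per class and library. Intervals at 95% are exact Poisson for CPM, exact conditional binomial for ratios and exact Clopper-Pearson for shares. A count of 0 was read as allowing 3 counts. PCR copies are removed by UMIs, but intervals still cover counting error only. The calculations were tested on simulated data. The members and lists were chosen with earlier results of these data known. All members are named. Of the listed genes, those named are among the up to 6 per class whose interval bound nearest to 1 lies farthest from it, and for likeness the 3 genes with highest r are named (1 of those for Spi1 is not reported here), leaving out mitochondrial, ribosomal, hemoglobin, immunoglobulin and predicted genes and genes under 200 UMIs. Cebpd was not found, and Itgam, on 2 rows, was left out. Alternatives used a stricter filter (1000 UMIs, 500 genes, 10% mitochondrial), left out the 4% of barcodes with the highest Scrublet scores, asked for 4 markers and a lead of 0.3, weighted barcodes equally, thinned each to 1000 UMIs, scaled by the median of ratios, or asked for 20 UMIs or 2-fold. Leaving out the 5 barcodes with most UMIs of a gene was added after seeing the data. The tools were scanpy 1.11.5, pandas 2.3.3, matplotlib 3.10.9, scipy 1.17.1 and numpy 2.4.6 under Python 3.11.15.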

Additional observations from a re-analysis of the deposited data

Results flagged for a closer look

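Maf was beyond 1.5-fold in opposite directions in the 2 kinds of monocyte-like barcodes, 1.71 (1.5 to 1.94) in classical and 0.635 (0.495 to 0.811) in nonclassical ones. Id3 was at 1.62 (1.20 to 2.21) in T cell-like barcodes but at 0.650 (0.583 to 0.725) in Kupffer cell-like and 0.579 (0.557 to 0.602) in monocyte-derived macrophage-like ones. Neither difference between classes was tested, since each genotype has 1 library. The T cell-like value of Id3 rests on 5 yap1 barcodes, as it was 0.835 without the top 5 of each library. The nonclassical Maf ratio stayed beyond 1.5-fold in 3 of 7 alternatives, and its interval included 1 in each subset split by Kupffer markers. The classical Maf ratio stayed beyond it in 7 of 7, but was below 1.5-fold within both subsets split by macrophage markers.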

How the results depend on the processing

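No paired analysis was possible because each genotype has 1 library and no result comes from a test. Of 570 ratios recomputed under 7 alternatives, 479 moved by less than their counting interval, 88 moved by more and 3 changed from a call to the other side of 1. These were Spic in the monocyte-derived class after thinning (1.35, from few UMIs) and Id3 in T cell-like barcodes with equal weights (0.938) and without the top 5 barcodes (0.835). Thinning accounted for 41 of the 88, and it also uses far fewer UMIs. Of the 15 pairs beyond 1.5-fold, 6 stayed beyond it in every alternative run on them: Spic in Kupffer cell-like, Id3 in monocyte-derived macrophage-like, Maf in classical monocyte-like, Cebpb and Irf4 in cDC2-like and Irf4 in B cell-like barcodes. For Irf4 in cDC2-like barcodes the thinned value, 1.55, came from few UMIs. The count of pairs higher in yap1 was 8 and became 3 at 2-fold. The count lower was 7 and became 12 after thinning and 2 at 2-fold. Few UMIs limited Irf4 in the myeloid classes and Spic outside the macrophage and nonclassical monocyte-like classes.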

Other observations

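Classes with fewer than 50 barcodes in a library, and natural killer or innate lymphoid-like barcodes (60 and 46), were not compared, and their levels describe single small groups. Irf8 stood at 1651 and 2078 CPM in type 1 conventional dendritic cell-like barcodes (19 and 13 of them), which depend on it, and at 1243 and 842 CPM in natural killer or innate lymphoid-like ones. Id2 was at 1642 and 2207 CPM in the former, 2150.5 and 2126 in migratory dendritic cell-like (23 and 17 barcodes) and 861 and 1386 in natural killer or innate lymphoid-like barcodes, all of which had 0 to 3 Irf4 UMIs per library. Irf4 stood at 198 and 357 CPM in plasma cell-like barcodes (21 and 8), the only class above the B cell-like one. Cebpb was at 4369.7 and 2709 CPM in basophil or mast cell-like barcodes (6 and 13). Id3 stood at 1563 and 1221 CPM in mesenchymal-like barcodes (16 and 8), with Spi1 at 0 and 1 UMIs there.

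B cell-like barcodes showed a split of the ID genes by Fcer2a, chosen after the values were seen. With an Fcer2a UMI the ratio was 0.587 (0.488 to 0.706) for Id3 and 0.629 (0.521 to 0.758) for Id2, and without one 2.45 (1.73 to 3.49) and 1.65 (1.29 to 2.11), so that both genes lay on opposite sides of 1 in the subsets while Irf4 was alike in them. Among B cell-like barcodes with a Mki67 or Top2a UMI, of which wild type held 53 and yap1 33, Id2 was counted 145 and 6 times. In the other B cell-like barcodes the Id2 ratio was 1.26 (1.07 to 1.48), against 0.876 (0.756 to 1.01) in the whole class. Wild-type barcodes with a Mki67 or Top2a UMI also had more Spi1 (183 against 116 CPM), Zeb2 (169 against 84.2) and Maf (80.2 against 39.0). Cebpb (423 against 433) and Irf4 (52.6 against 98.4) were not higher in them. The part of barcodes holding more than 1 cell was not tested. In monocyte-derived macrophage-like barcodes Id2 had a ratio of 0.794 (0.723 to 0.872) with 0 Kupffer markers and 1.29 (1.19 to 1.40) with 2 or more, on either side of the ratio of the whole class, 1.02 (0.965 to 1.07).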
